A study of Homo sapiens with 2 samples.

Results

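The BCL2 family decides whether the outer membrane of mitochondria stays intact, and 10 of its genes were read here in U251 glioma cells transfected with miR-31 and in U251 cells transfected with a control. The members were BCL2, BCL2L1, MCL1, BCL2L11, BAK1, BID, BAD, PMAIP1, BIK and BMF. Every probe set of the Affymetrix HG-U133_Plus_2 array whose platform gene symbol was exactly one of these names was taken, which gave 32 probe sets out of 54675, 41091 of which carried 1 gene symbol. No probe set that lists several genes named a member. U251 is an established human glioma cell line, both cultures were grown in DMEM with serum, and the groups are 1 array of miR-31-transfected cells and 1 array of control-transfected cells. What kind of construct was transfected, and for how long, is not stated in the sources used. With 1 array per group there is no replicate spread, so no p-value was computed and each difference is between 2 RNA samples.

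Survival members such as BCL2, BCL-xL (from BCL2L1) and MCL1 hold the pore-forming proteins BAK and BAX in check. BH3-only members, such as BIM (from BCL2L11), BID, BAD, NOXA (from PMAIP1), BIK and BMF, bind the survival members in a groove and free or activate the pore formers, after which cytochrome c leaves the mitochondria and caspases are switched on. Glioma cells are known to depend on survival members, and MCL1 protein turns over quickly, so that its transcript level can matter within hours. These roles are background and were not measured on the arrays, which read RNA.

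The labels distinguish the 2 cultures by transfection with miR-31 and do not name a strand. The mature 5p strand of miR-31 is shown here with its seed, bases 2 to 8, in capitals. The sequence is from RefSeq (GRCh38.p14, minus strand, chr9:21512158-21512178).
hsa-miR-31-5p: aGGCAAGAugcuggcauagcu
The level of mature miR-31 was not analysed here, and target sites in the members' transcripts were not searched. Of the members, BCL2L11 differed most among the genes read by a bright probe set, and its promoter is shown for that reason. The window runs from 250 bases before to 50 after the RefSeq start site of BCL2L11 (GRCh38.p14, plus strand, chr2:111120664-111120963). Capitals mark the letters GTAAACA, the core motif bound by FOXO transcription factors.
BCL2L11 promoter: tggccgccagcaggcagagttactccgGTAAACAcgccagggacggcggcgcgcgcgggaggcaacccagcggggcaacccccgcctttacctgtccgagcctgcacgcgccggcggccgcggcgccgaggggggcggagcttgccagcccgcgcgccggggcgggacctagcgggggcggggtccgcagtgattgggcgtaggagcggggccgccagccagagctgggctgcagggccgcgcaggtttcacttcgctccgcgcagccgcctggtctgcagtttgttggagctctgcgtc

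The values are linear intensities, and the arrays had been brought to a common scale, since the mean intensity without the lowest and highest 2% of probe sets was 500.1 on both. Ratios are log2(intensity + 16) of the miR-31 array minus that of the control array, a scale that understates the change of dim probe sets. The median ratio of all genes, each read by its brightest probe set, was 0.01 on this scale. Probe sets whose mean level over both arrays was under an intensity of 62.6, the median of all probe sets, are called dim here. No detection calls were used, so a dim value cannot be told from background. Of the 32 member probe sets 27 were above that level and 5 were dim. A gauge of noise is how far log2 ratios of the same gene scatter between its probe sets, an SD of 0.337 over 3142 genes with exactly 2 probe sets above the level. It leaves out differences between cultures. In the lists of markers fixed for this report, the glial genes VIM, CD44 and GFAP were bright, with 34112, 20146 and 3624 in the miR-31 array and 29991, 23866 and 2007 in the control array. NES, SOX9 and SLC1A3 were bright too, with 5877, 2826 and 1379 in the miR-31 array and 11039, 4170 and 1604 in the control array. AQP4 and S100B were dim, with 31.3 and 50.8 in the miR-31 array and 2.08 and 38.1 in the control array. The highest microglial and macrophage, lymphoid and oligodendroglial markers in the miR-31 array were CSF1R, CD2 and MOG, with 101, 56.7 and 33.3. In the control array they were ITGAM, CD2 and MBP, with 76.2, 38.9 and 78.0. The highest endothelial marker, KDR, had 281 in the miR-31 array and 539 in the control array, and the highest neuronal marker, SYT1, had 705 in the miR-31 array and 345 in the control array.

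BCL2L11 was higher in the miR-31 array and MCL1 was lower. On the deposited scale most other members differed by less than the noise gauge or had probe sets on both sides of 0. A probe set is counted as 2-fold higher or lower where its ratio on the log2(intensity + 16) scale reaches 1 or -1. Of the 32 member probe sets 3 were at least 2-fold higher on that scale, against a background of 6.03% of all probe sets with 1 symbol. On the same scale 0 were at least 2-fold lower, against a background of 5.06%. With a pseudocount of 1 in place of 16 there were 2 lower, 226530_at of BMF and 200796_s_at of MCL1. The background for that pseudocount was not computed. The 3 higher probe sets were those of BCL2L11 named 225606_at and 1555372_at and that of BCL2L1 named 206665_s_at, which was dim. The call of 1555372_at was lost with centring on hybridisation controls (0.95) or on poly-A controls (0.58), or where the pseudocount was 64 (0.98). Among the 27 member probe sets above the level, 2 were at least 2-fold higher, and the background there was 3.58%. Counts this small cannot be set apart from the background. In RNA from a whole culture, a change in every cell and a change in a fraction of the cells cannot be told apart. Ratios were below 0 for 19 of the 32 member probe sets (48.1% of all probe sets with 1 symbol). They were below 0 for 18 of the 25 that did not belong to BCL2L11, which was left out after its ratios had been seen.

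**Figure D1:**
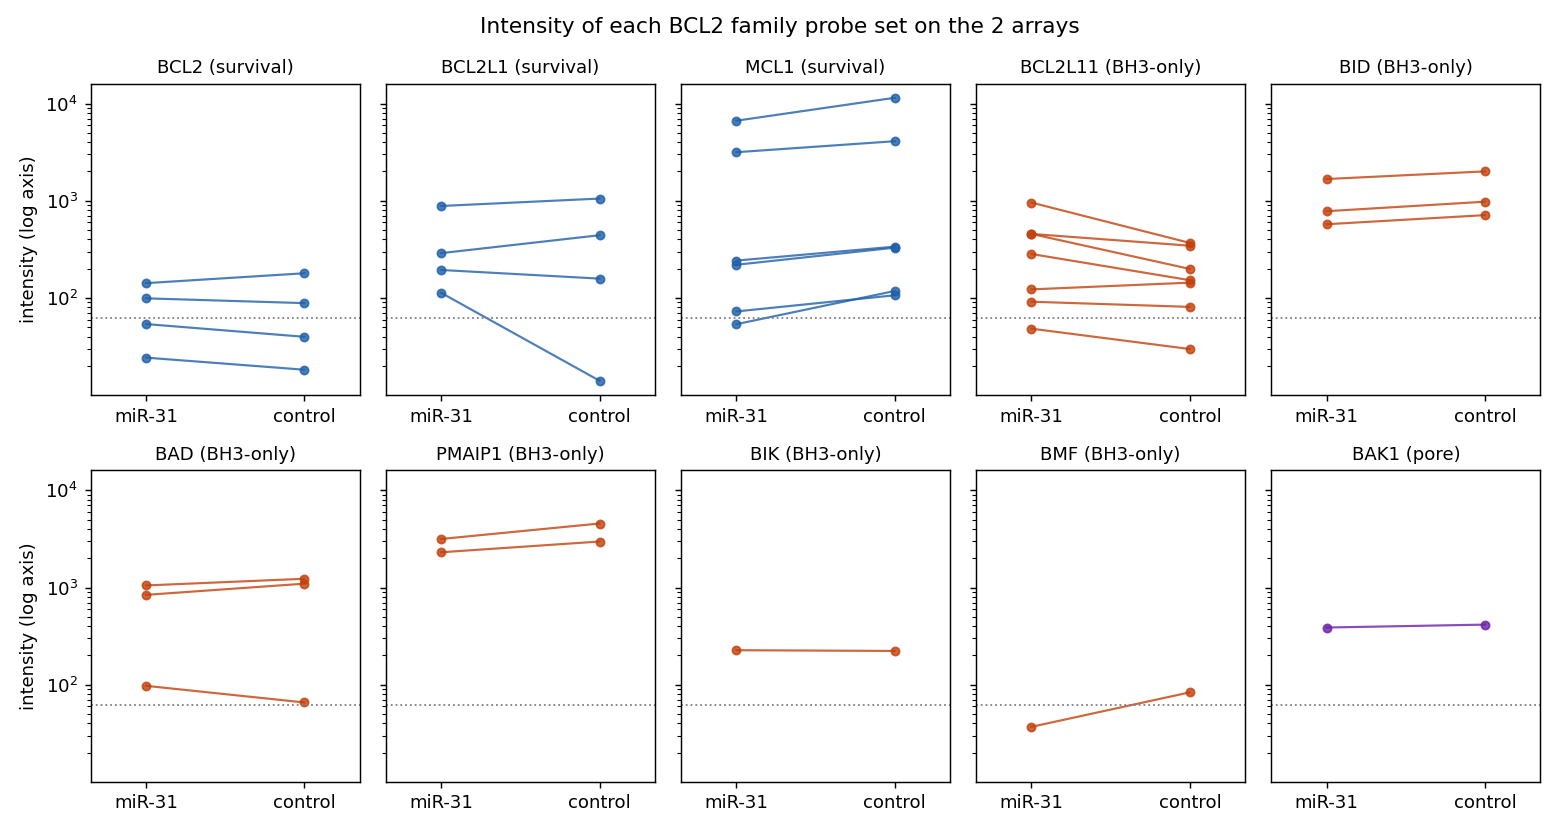
Intensity (log axis) of each probe set of the 10 members on the miR-31 array (left point) and the control array (right point), 1 line per probe set and 1 panel per gene, with the colour giving the role. The dotted line is an intensity of 62.6. All 6 lines of MCL1 are lower on the miR-31 side, and 6 of the 7 lines of BCL2L11 are higher there.

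BCL2L11 encodes BIM, a BH3-only protein that binds all the main survival members and can activate BAK and BAX directly. Its brightest probe set, 225606_at, had an intensity of 958 in the miR-31 array and 368 in the control array, a log2 ratio of 1.34 and a linear ratio of 2.60. This was the largest ratio of any member probe set above the level. When all probe sets with 1 symbol were split by level into 4 equal bands, 1.71% of the brightest band, to which it belongs, were at least 2-fold higher.

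The other 6 probe sets of BCL2L11 ran from clearly higher to slightly lower. Probe set 1555372_at had 456 in the miR-31 array and 199 in the control array (log2 ratio 1.14), and in its level band 5.03% of probe sets were at least 2-fold higher. Probe set 1558143_a_at had 283 in the miR-31 array and 152 in the control array (0.83). These 2 were thus on the same side as the brightest one, by more than the noise gauge. Probe set 1553096_s_at had 456 in the miR-31 array and 345 in the control array (0.39), close to that gauge. The dim 208536_s_at had 48.3 in the miR-31 array and 29.8 in the control array, a log2 ratio of 0.49, and 222343_at had 91.5 in the miR-31 array and 81.0 in the control array, a log2 ratio of 0.15. Only 1553088_a_at was lower, with 123 in the miR-31 array and 144 in the control array (-0.21), inside the noise gauge on the deposited scale. The ratios therefore spanned 1.55 on the log2 scale, with 6 above 0 and 1 below. A span at least that wide was seen in 39.8% of the 171 genes with 7 probe sets, so disagreement of this size was common on these arrays. The median of the 7 ratios was 0.49 and their mean 0.59. When all ratios were centred on the poly-A controls, 225606_at had 0.79, and 3 of the 7 probe sets stayed above 0. Centred on the hybridisation controls, 5 did. BCL2L11 is spliced into many forms, and which forms each probe set reads was not tested.

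**Figure D2:**
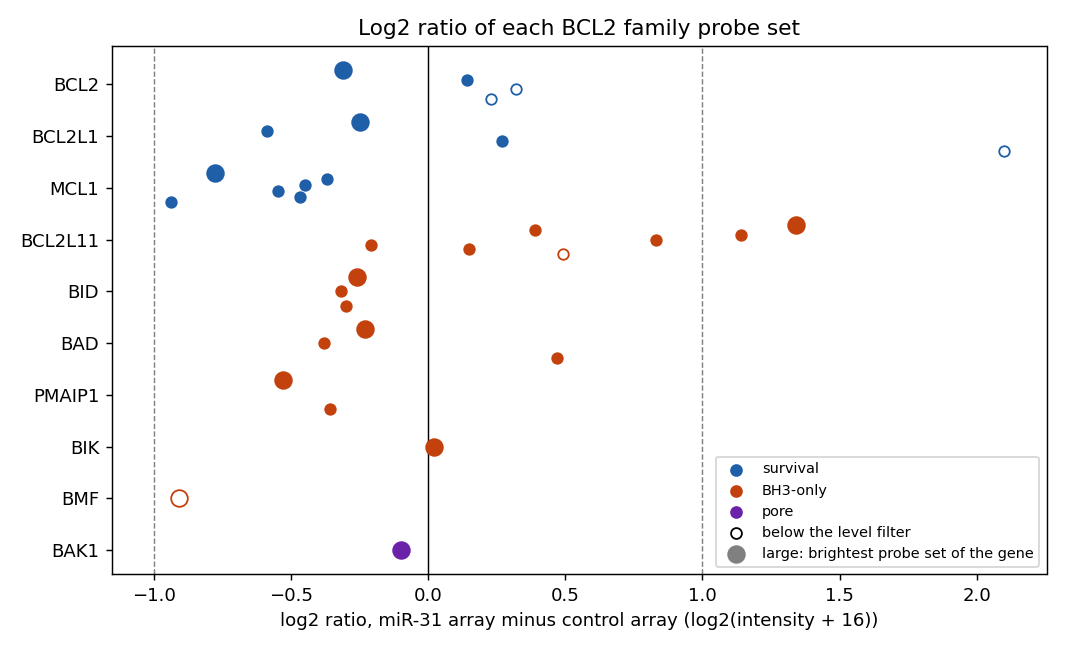
Log2 ratio (miR-31 array minus control array, on log2(intensity + 16)) of each member probe set, by gene, with the brightest probe set of a gene drawn large and dim probe sets drawn open. Dashed lines mark 2-fold; 2 probe sets of BCL2L11 and a dim one of BCL2L1 lie beyond it, and all 6 of MCL1 lie between -0.94 and -0.37.

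MCL1, a survival member with a short-lived protein, was lower in the miR-31 array on all of its 6 probe sets. The brightest, 200797_s_at, had 6657 in the miR-31 array and 11458 in the control array, a log2 ratio of -0.78. This is a control intensity 1.72 times that of the miR-31 array. Probe set 200798_x_at, of a class that may also read related transcripts, had 3157 in the miR-31 array and 4097 in the control array (-0.37). Between them the 6 ratios lay from -0.94 to -0.37, and none reached 2-fold on the log2(intensity + 16) scale. Each was beyond the noise gauge of 0.337, which is a single SD and not a test threshold. The 6 probe sets read the same RNA samples and are not replicates. The lowest ratio came from 200796_s_at, with 53.8 in the miR-31 array and 118 in the control array. It passed 2-fold with a pseudocount of 1 (-1.12), after quantile normalization (-1.05), after loess (-1.03) and with centring on hybridisation controls (-1.13) or on poly-A controls (-1.49). After quantile normalization 200798_x_at had -0.32, inside the gauge. The other 3, 214057_at, 227175_at and 214056_at, had 220, 72.7 and 242 in the miR-31 array and 329, 107 and 337 in the control array (log2 ratios -0.55, -0.47 and -0.45). Only these 3 remain when _s_at and _x_at probe sets are left out, and the brightest of them then gives MCL1 -0.45 in place of -0.78. Of the 326 genes with 6 probe sets, 7.98% had all ratios below 0. The sign of the brightest probe set and of all 6 held after quantile normalization and after loess. Median centring and centring on the hybridisation or poly-A controls subtract 0.02, 0.19 and 0.55 from every ratio. By construction these could only lower the 6 ratios, so they do not probe the sign.

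A shift of all ratios by the same amount leaves the difference between BCL2L11 and MCL1 as it is. On the brightest probe sets the BCL2L11 ratio exceeded that of MCL1 by 2.12 on the log2 scale. On the deposited scale the lowest of the 7 BCL2L11 ratios was 0.17 above the highest of the 6 MCL1 ratios. After quantile normalization they overlapped, with -0.35 for 1553088_a_at of BCL2L11 and -0.32 for 200798_x_at of MCL1, and after loess they were -0.33 and -0.34. These genes were set against each other after their values had been seen.

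BCL2, the survival member for which the family is named, had low intensities and probe sets on both sides of 0. Its brightest probe set, 203685_at, had 142 in the miR-31 array and 180 in the control array (-0.31). Probe set 207004_at had 99.2 in the miR-31 array and 88.5 in the control array (0.14). The dim 207005_s_at had 53.9 in the miR-31 array and 39.9 in the control array (0.32), and the dim 203684_s_at had 24.3 in the miR-31 array and 18.3 in the control array (0.23). All 4 ratios were smaller than the noise gauge on the deposited scale. That of 203685_at passed it after quantile normalization (-0.46), after loess (-0.44) and centred on hybridisation (-0.50) or poly-A controls (-0.86). With a pseudocount of 1, 207005_s_at had 0.43 and 203684_s_at 0.39. The 3 positive ratios lay below 0 when centred on the poly-A controls, with 207004_at at -0.41. That of 207004_at was also below 0 when centred on the hybridisation controls.

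BCL2L1 encodes the survival protein BCL-xL and, by alternative splicing, a shorter form known to favour death. Its brightest probe set, 212312_at, had 884 in the miR-31 array and 1053 in the control array (-0.25), and 231228_at had 289 in the miR-31 array and 442 in the control array (-0.59). Probe set 215037_s_at had 194 in the miR-31 array and 158 in the control array (0.27, below 0 when centred on the poly-A controls). The last, 206665_s_at, stood apart, with 113 in the miR-31 array and 14.1 in the control array. Its log2 ratio of 2.10 was the highest of all member probe sets, but the control value lies far under the dim level, and its size depends on the pseudocount. In its level band 11.1% of probe sets were at least 2-fold higher. The span of 2.69 between the probe sets of BCL2L1 was reached or passed by 1.22% of the 1393 genes with 4 probe sets. The platform annotation pairs 206665_s_at with the RefSeq transcript of the short form, and whether its probes read that form alone was not tested.

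The BH3-only members other than BCL2L11 were mostly lower by small amounts. PMAIP1, which encodes NOXA, the BH3-only partner of MCL1, had 3157 in the miR-31 array and 4552 in the control array on 204285_s_at (-0.53), and 2304 in the miR-31 array and 2971 in the control array on 204286_s_at (-0.36). Both were lower by more than the noise gauge and by less than 2-fold. BID, which caspase cleavage turns into an activator of BAK and BAX, was lower on its 3 probe sets, which lay close together. Probe sets 211725_s_at, 227143_s_at and 204493_at had 1673, 781 and 574 in the miR-31 array and 2005, 978 and 712 in the control array, with log2 ratios of -0.26, -0.32 and -0.30. Of the 2780 genes with 3 probe sets, 17.2% had all ratios below 0. The 3 values of BID were inside the noise gauge on the deposited scale. After quantile normalization 227143_s_at and 204493_at passed it (-0.37 and -0.38), and after loess too (-0.36 and -0.37). Centred on the hybridisation controls all 3 passed it (-0.45, -0.51 and -0.49, in the order given above), as they did centred on the poly-A controls.

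BAD, a BH3-only protein held inactive by survival kinases, was lower on its 2 brighter probe sets and higher on the third. Probe set 209364_at had 1050 in the miR-31 array and 1230 in the control array (-0.23), and 1861_at had 840 in the miR-31 array and 1095 in the control array (-0.38). Probe set 232660_at had 97.4 in the miR-31 array and 65.7 in the control array (0.47), and was below 0 when centred on the poly-A controls. BIK, a BH3-only protein of the endoplasmic reticulum, was read by a single probe set with 227 in the miR-31 array and 223 in the control array. Its log2 ratio was 0.02, and it was below 0 after quantile normalization, after loess and when centred on either class of control probe sets. BMF, a BH3-only protein tied to the cytoskeleton, had a single dim probe set with 36.9 in the miR-31 array and 83.6 in the control array (-0.91). In its level band 9.22% of probe sets were at least 2-fold lower. BAK1, the only pore member on the list, had 388 in the miR-31 array and 415 in the control array (-0.10), the smallest difference of any member except BIK.

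**Figure D3:**
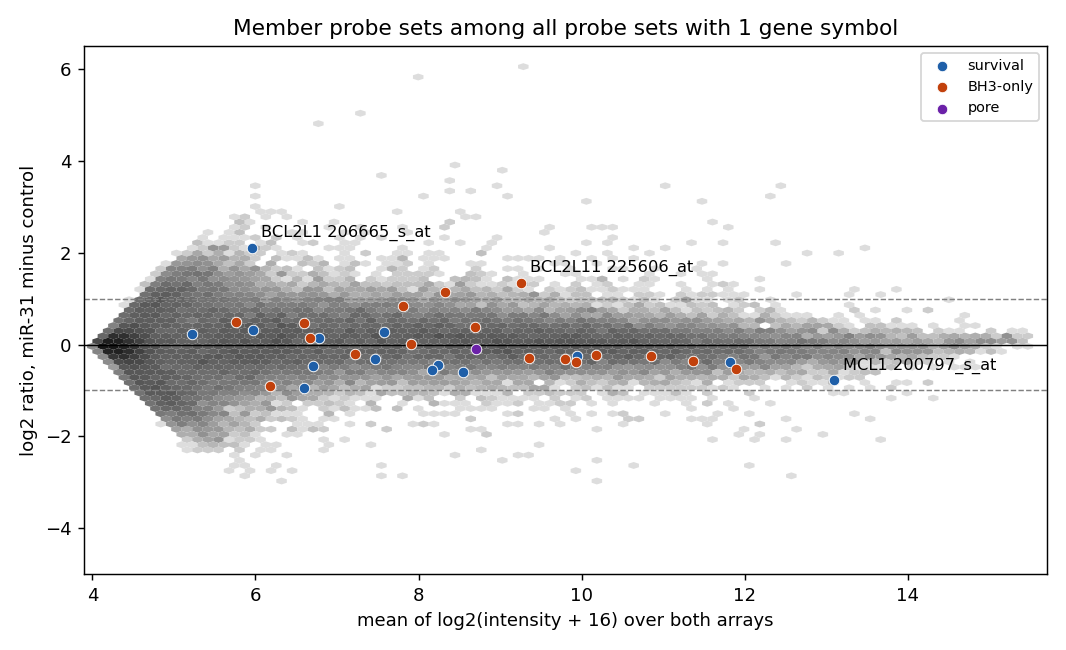
Log2 ratio (miR-31 minus control) against the mean of log2(intensity + 16) over both arrays, for all 41091 probe sets with 1 gene symbol (grey, darker where more lie) and for the 32 member probe sets (coloured by role). Dashed lines mark 2-fold. Ratios spread most widely among dim probe sets, where 206665_s_at of BCL2L1 lies, and least among bright ones, where 200797_s_at of MCL1 lies.

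Set against each other by role, the survival members and the BH3-only and pore members did not separate. With each gene read by its brightest probe set, the median log2 ratio was -0.23 over the 7 BH3-only and pore members and -0.31 over the 3 survival members. All 3 survival members were below 0, as were 5 of the 7 BH3-only and pore members, and the background of genes below 0 was 49.2%. The survival median was 0.08 lower, written -0.08 in the direction survival minus BH3-only and pore, which is far inside the noise gauge of a single probe set. Averaging all probe sets of a gene, the survival median was 0.10 and the difference 0.19, with the opposite sign. Without BCL2L11 the 6 remaining BH3-only and pore genes had a median of -0.24 and a highest ratio of 0.02. Over all genes the median was 0.01. Across the 11 probe sets of those 6 genes, 9 were below 0, against 48.1% of all probe sets with 1 symbol. BCL2L11 was left out after its ratios had been seen, so lower ratios in the rest follow in part from that choice. Of all 10 members, only BCL2L11 and BIK had a brightest probe set above 0 on the deposited scale, that of BIK at 0.02.

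The other genes of the family mostly differed little on their brightest probe sets. Of a list of 14 further family genes 13 were measured, and BBC3 was not analysed here. On brightest probe sets 4 were above 0 and 9 below, with a median of -0.12. On the log2(intensity + 16) scale 0 were at least 2-fold higher and 1 was lower, against backgrounds of 5.99% and 5.07% of all genes. With a pseudocount of 1 there were 3 lower, and the background for that pseudocount was not computed. The gene lower on the log2(intensity + 16) scale was BCL2L15, with 12.4 in the miR-31 array and 45.6 in the control array (-1.12). Both values were dim, and its 3 probe sets ran from -1.46 to 1.51. Of the 8 genes above the level none reached 2-fold on its brightest probe set, and they lay between -0.56 and 0.56. Among all 11792 genes above the level, 441 were at least 2-fold higher and 186 lower, so 0 of 8 cannot be set apart from the background. BCL2L13, named after its values were seen, ran from -0.02 to 1.27 over 5 probe sets, with 4 above 0. Its highest ratio came from a probe set above the level, with 149 in the miR-31 array and 52.4 in the control array. The following were looked up after the values had been seen. BAX, the pore former that works beside BAK, had 1114 in the miR-31 array and 1216 in the control array (-0.12, and -0.36 on its other probe set). BNIP3L, a mitophagy receptor, had 4860 in the miR-31 array and 3291 in the control array (0.56, and 0.70 on its other probe set). BCL2L12 had 962 in the miR-31 array and 1430 in the control array (-0.56).

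Genes of the apoptosome and of mitochondria were near 0 on their brightest probe sets. Some of them act after the pore opens, and some are channel or fusion proteins of the membranes. Of a list of 14, 12 were measured, all above the level, with a median log2 ratio of -0.06. On brightest probe sets ratios ran from -0.35 to 0.43, with 5 above 0 and 7 below, and none reached 2-fold. Among all 11792 genes above the level, 441 were at least 2-fold higher and 186 lower. A count of 0 of 12 cannot be set apart from that background. On other probe sets APAF1 went down to -1.23, on a dim one with 7.08 in the miR-31 array and 38.2 in the control array. CASP9 went up to 0.85, also on a dim one. AIFM1, a mitochondrial flavoprotein released during cell death, had the largest ratio, with 2042 in the miR-31 array and 1508 in the control array (0.43, below 0 when centred on the poly-A controls). VDAC3, a channel of the outer membrane, had 10259 in the miR-31 array and 13077 in the control array (-0.35). Its other probe sets had -0.10 and 0.28. ENDOG, a mitochondrial nuclease, had 273 in the miR-31 array and 333 in the control array (-0.27).

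Reported regulators of the family's genes and proteins were also within 2-fold on their brightest probe sets. Of a list of 22, 20 were measured, all above the level, with a median of -0.01, 9 above 0 and 11 below. Among all 11792 genes above the level, 441 were at least 2-fold higher and 186 lower, so 0 of 20 cannot be set apart from the background. Some other probe sets did pass 2-fold. YWHAZ had 232 in the miR-31 array and 81.3 in the control array on one above the level. FOXO1, on one above the level, and HUWE1, on a dim one, passed it too, as given below. IRF1, an interferon-induced transcription factor, had 602 in the miR-31 array and 352 in the control array (0.75). E2F1, a cell cycle transcription factor, had 512 in the miR-31 array and 310 in the control array (0.70), but -0.41 on its other probe set. FOXO3, a transcription factor that drives BCL2L11 in several cell types, had 4122 in the miR-31 array and 2884 in the control array (0.51), and all 4 of its probe sets were above 0, between 0.19 and 0.68. The FOXO3 value of 0.51 lies below 0 when centred on the poly-A controls, whose own median was 0.55. FOXO1, named after its values were seen, had 370 in the miR-31 array and 257 in the control array (0.50, below 0 when centred on the poly-A controls) and ran from -0.06 to 1.18 over 3 probe sets. Genes that set the life span of MCL1 protein were also looked up after the values were seen. On brightest probe sets the ubiquitin ligases HUWE1 and FBXW7 had 0.15 and -0.32 and the deubiquitinase USP9X had 0.12. Over all their probe sets HUWE1 ran from -1.36 to 0.41, FBXW7 from -0.32 to 0.93 and USP9X from -0.31 to 0.20. The brightest probe sets of HUWE1 and USP9X lie below 0 when centred on either class of control probe sets.

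Promoter windows of 300 bases were found in the RefSeq table for 8 of the 10 members, in 15 windows, and MCL1 and BIK were not matched. They were searched on both strands for 8 motifs chosen after the ratios were known. The FOXO core GTAAACA was found in 1 of the 15 member windows, that of BCL2L11, at the position shown in capitals above, with its first base 223 bases before the start site on the gene's strand. Of all 35116 windows 3.42% held it. The GC box GGGCGG was in 11 of the 15 member windows and in 45% of all windows; BCL2 was the only matched member with no window that held it. The ETS motif CCGGAAGT was in a window of BCL2L1 (4.14% of all windows). The AP-1 motif TGANTCA (7.71% of all windows), the interferon response element GAAANNGAA (8.11%), the cyclic AMP response element TGACGTCA (1.85%), the E2F motif TTTGGCGC (0.652%) and the STAT motif TTCNNNGAA (7.66%) were in none of the 15 windows. A match is a run of letters, and binding was not measured.

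**Figure D4:**
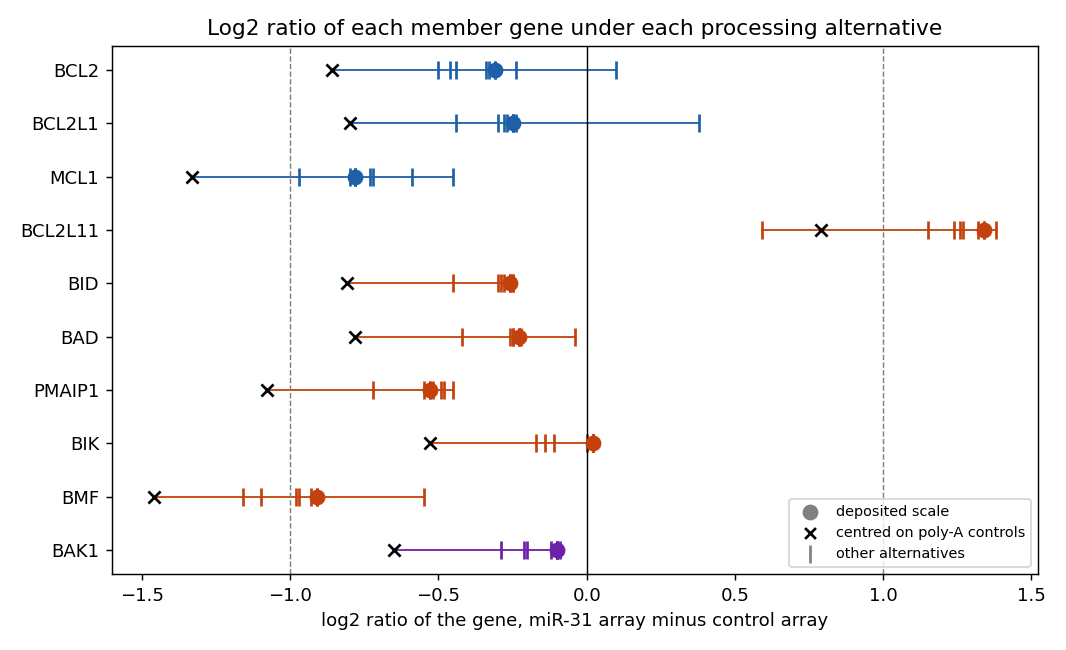
Log2 ratio of each member gene (miR-31 array minus control array) on the deposited scale (filled circle) and under each processing alternative (ticks, with a cross for centring on the poly-A controls); dashed lines mark 2-fold. BCL2L11 lies between 0.59 and 1.38 and MCL1 between -1.33 and -0.45, while BCL2, BCL2L1 and BIK have values on both sides of 0.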

How the data were processed

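A single table of linear intensity, deposited by the authors, covers 54675 probe sets on 2 arrays, and how it was computed from the scans is not stated. Per the labels' protocols, trizol-extracted total RNA was made into biotinylated cRNA with the GeneChip IVT Express kit. Symbols came from the platform annotation supplied with the data, and all 10 members matched the RefSeq gene table by Entrez identifier. The 62 control probe sets were left out of gene counts.

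Ratios were log2(intensity + 16), miR-31 minus control. All member probe sets were kept, and the probe set with the highest mean level stood for a gene. No test was possible with 1 array per group, and their number limits the precision. The rule for named genes took all members and, of each other list, those past 2-fold or else the 3 with the largest absolute ratio. Some listed genes are not reported here. Members, lists and rules were chosen with earlier results of these data known. The calculation was tested on simulated data. Alternatives were quantile normalization, median centring, loess (span 0.3), centring on 18 hybridisation or 24 poly-A control probe sets, pseudocounts of 1 and 64, a level filter, leaving out _s_at and _x_at probe sets, a 1.5-fold threshold and the mean of probe sets. Calculations ran in Python (3.11.15) with pandas (2.3.3), numpy (2.4.6), statsmodels (0.14.6) and scipy (1.17.1), and plots in matplotlib (3.10.9).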

Additional observations from a re-analysis of the deposited data

How the results depend on the processing

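No paired analysis was possible because there is a single array of each kind, and leaving out either would leave no comparison. The number of member probe sets at least 2-fold higher, 3, became 1 when centred on the poly-A controls, and no BCL2L11 probe set was among the calls there. It became 2 when centred on the hybridisation controls and with a pseudocount of 64, where 1555372_at of BCL2L11 was no longer called. The number at least 2-fold lower, 0, became 1 after quantile normalization, 1 after loess, 2 centred on the hybridisation controls, 8 centred on the poly-A controls, 2 with a pseudocount of 1 and 4 at 1.5-fold. For these counts, and those of the further family genes below, the share of all probe sets or genes called under the same alternative was not computed. Centred on the poly-A controls, the median of all probe sets with 1 symbol was itself -0.53. Centring on the poly-A controls, which subtracts 0.55 from every ratio by construction, gave a survival median of -0.86 and a BH3-only and pore median of -0.78. Averaging the probe sets of each gene turned the survival median, -0.31, to 0.10. Of the further family genes the number at least 2-fold lower, 1, became 2 centred on the hybridisation controls, 5 on the poly-A controls, 3 with a pseudocount of 1, 2 without _s_at and _x_at probe sets and 2 at 1.5-fold. It was 0 with a pseudocount of 64, with the level filter and with the mean of probe sets. Of the regulators, 2 were higher at 1.5-fold, and 1 was at least 2-fold lower when centred on the poly-A controls. Over all alternatives, 319 ratios of single members and probe sets moved by less than the noise gauge and 49 by more. No ratio past 2-fold changed sign. These results are partly set by construction. Centring on the poly-A controls moves every ratio by 0.55, more than the gauge. A ratio past 2-fold cannot change sign by that shift or by another pseudocount. Leaving out dim, _s_at or _x_at probe sets cannot change the ratio of a kept probe set. The brightest probe set of a gene is counted both for the gene and for itself. Leaving out _s_at and _x_at probe sets leaves no value for PMAIP1, and the level filter leaves none for BMF. Dim probe sets limit BMF, BCL2 and BCL2L15 in particular. Where not stated as construction, the cause of a change was not tested.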
